A study of Mus musculus with 2 samples.

Results

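The 8 genes described here, Nlrp3, Nek7, Pycard, Casp1, Gsdmd, Il1b, Il18 and Txnip, code for the NLRP3 inflammasome, its substrates and 2 proteins that bind NLRP3. They were chosen by symbol from the 28692 genes listed in the count matrices, all 8 were found, and each had at least 20 unique molecular identifiers (UMIs, one per captured mRNA molecule) over the libraries. They were measured in 2 single-cell RNA-seq libraries of CD45+ cells resident in adipose tissue of adult wild-type C57BL/6 mice, 1 from mice fed chow and 1 from mice fed a ketogenic diet (KD) for 1 week. Resident cells were told from blood cells by intravenous labelling, per the series' design text. The sources used here give the animals' age only as adult and do not give how many animals went into a library or the makeup of the diets. With 1 library per diet no difference between diets can be tested, and every interval below is a 95% interval that covers counting error only.

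The inflammasome is a multiprotein complex of innate immune cells. NLRP3 senses cell stress such as loss of potassium, NEK7 binds it and licenses its assembly, the adaptor ASC (gene Pycard) joins it to the protease caspase-1 (Casp1), and caspase-1 cuts the precursors of the cytokines interleukin-1β (Il1b) and interleukin-18 (Il18) and the pore-forming protein gasdermin D (Gsdmd). TXNIP, an inhibitor of thioredoxin whose transcription is known to follow glucose, has been described as a partner of NLRP3. Transcription of Nlrp3 and Il1b is induced in a priming step by NF-κB, so their mRNA reports priming and not the assembly or activity of the complex, which mRNA counts do not measure. The complex is studied in adipose tissue macrophages in obesity, and β-hydroxybutyrate, the main ketone body in blood, has been described as an inhibitor of its assembly.

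The promoters of the genes whose patterns are contrasted below, Il1b, Nlrp3, Casp1 and Txnip, are shown as the 250 bases before a RefSeq transcription start (build GRCm38.p6), 5′ to 3′ on the gene's strand, with the motif matches described after them in capitals. RefSeq promoters were found for 7 of the 8 genes, and not for Gsdmd.
Il1b, chr2:129371140-129371389, minus strand: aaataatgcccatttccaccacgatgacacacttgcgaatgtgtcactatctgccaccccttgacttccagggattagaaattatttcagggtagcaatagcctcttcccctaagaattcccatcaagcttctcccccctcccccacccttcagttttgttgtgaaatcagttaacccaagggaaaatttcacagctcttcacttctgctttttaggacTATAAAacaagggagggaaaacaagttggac
Nlrp3, chr11:59541319-59541568, plus strand: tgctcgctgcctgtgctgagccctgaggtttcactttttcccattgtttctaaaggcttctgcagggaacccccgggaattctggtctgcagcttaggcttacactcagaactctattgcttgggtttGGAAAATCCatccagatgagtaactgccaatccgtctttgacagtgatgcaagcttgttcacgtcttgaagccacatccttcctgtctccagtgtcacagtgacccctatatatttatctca
Casp1, chr9:5298267-5298516, plus strand: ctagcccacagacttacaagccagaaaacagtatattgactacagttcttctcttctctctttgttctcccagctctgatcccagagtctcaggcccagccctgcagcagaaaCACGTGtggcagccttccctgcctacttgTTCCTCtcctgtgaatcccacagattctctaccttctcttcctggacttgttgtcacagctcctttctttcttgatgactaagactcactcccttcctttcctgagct
Txnip, chr3:96557707-96557956, plus strand: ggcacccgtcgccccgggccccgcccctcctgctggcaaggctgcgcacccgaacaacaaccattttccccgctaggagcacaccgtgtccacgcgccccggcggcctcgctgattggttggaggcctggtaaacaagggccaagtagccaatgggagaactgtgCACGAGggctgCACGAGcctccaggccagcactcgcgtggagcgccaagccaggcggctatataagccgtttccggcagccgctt

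In the Il1b sequence the capitals mark a TATA box (TATAAA) 31 to 26 bases before the start, a motif that 12.4% of the 32851 RefSeq promoters of this length held on either strand. In the Nlrp3 sequence, which belongs to the upstream one of 2 starts, they mark a match to an NF-κB motif (GGANNTTCC, here read on the other strand) 122 to 114 bases before the start, which 3.59% of promoters held. The window of the other start, chr11:59542436-59542685, had no NF-κB match and 3 PU.1 matches, of which the nearest lay 36 to 31 bases before that start. The Casp1 sequence held an E-box (CACGTG, 6.02% of promoters) 137 to 132 bases and a PU.1 motif (GAGGAA, on the other strand, 23.3%) 108 to 103 bases before its start. The Txnip sequence held 2 copies of CACGAG, the repeated unit of the carbohydrate response element (ChoRE), 85 to 80 and 74 to 69 bases before the start. At least 1 CACGAG was in 5.37% of promoters. These letters were chosen from knowledge of the Txnip element and do not cover other forms of the element, so the percentage does not show how rare such elements are. The other motifs searched on both strands, an ISRE (GAAANNGAA, 7.13% of promoters), AP-1 (TGANTCA, 6.75%), CRE (TGACGTCA, 1.55%) and C/EBP (TTGCNNAA, 9.56%), had no match in these 4 windows. The Il1b window also had no match to the NF-κB or the PU.1 motif. No 2 of these motifs overlap in the windows shown, and a match describes letters and not binding.

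On GRCm38 with GENCODE M21, Nlrp3 lies at chr11:59541568-59566956 on the plus strand, Il1b at chr2:129364570-129371139 on the minus strand and Il18 at chr9:50554827-50581840 on the plus strand. Casp1 lies at chr9:5298517-5307265 (plus), Pycard at chr7:127989708-127993867 (minus) and Gsdmd at chr15:75862327-75867408 (plus). Nek7 lies at chr1:138482875-138620141 (minus) and Txnip at chr3:96557957-96561883 (plus).

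The chow library held 4545 cells and the KD library 5614, with medians of 3469 and 3461.5 UMIs per cell, and 10x barcodes of 41 cells occurred in both, 3 of them in the same cluster. The authors' deposited table puts 4458 and 5559 of these cells into 13 numbered clusters, which were named here from marker genes. Clusters 3 (macrophage-like), 5 and 6 (the conventional dendritic cell types, cDC2-like and cDC1-like), 12 (mature DC-like) and 8 (unnamed, led by Retnla, Fcrls and Lyz1) are called myeloid below. Clusters 0 (ILC2-like), 1 (NK-like), 2 (T-like), 7 (Treg-like), 9 (B and plasma-like), 11 (γδ T-like) and 4 (unnamed) are called lymphoid, and cluster 10 is cycling cells. Cluster 4 was led by Klra1 and Klra7, with CD3 genes among its leading genes. The libraries differed in cluster shares: myeloid clusters held 43.3% of chow and 17.2% of KD cells, and clusters 3 and 8 together 27.4% and 3.45%. Cluster 3 had 859 chow and 145 KD cells, and cluster 8 had 362 and 47. Cluster 3 also raised 7 of 8 monocyte markers and 3 of 11 neutrophil markers over the other cells, so it is a mixed macrophage and monocyte cluster.

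Nlrp3, the sensor, and Il1b, the main cytokine substrate, had the same 2 leading clusters in both libraries, the macrophage-like and the cDC2-like cells. Levels are given as CPM, the gene's UMIs summed over the cells of a cluster and scaled to the total UMIs of those cells. Nlrp3 stood at 133 CPM (124 to 144) in cluster 3 of the chow library and at 123 (101 to 148) in that of the KD library. In cluster 5 it stood at 65.3 (55.1 to 76.9) and 84.3 (73.8 to 95.9), and in cluster 8 at 52.5 (44.6 to 61.6) and 31.8 (13.7 to 62.6), the last from 8 UMIs. Cluster 3 was thus above cluster 5 in both libraries with no overlap of the intervals, while most neighbours further down the order overlapped (11 of 12 neighbouring pairs in chow and 10 of 12 in KD). In cluster 6 Nlrp3 stood at 29.1 and 17.2 CPM, in cluster 10 at 26.1 and 20.1, and in the lymphoid clusters with over 3 UMIs at 5.67 to 32.1 in chow and 2.58 to 13.4 in KD. The mature DC-like cluster 12 lay within these lymphoid ranges, with Nlrp3 at 10.3 and 5.78 CPM from 4 and 2 UMIs. In the γδ T-like cells it rested on 1 UMI in each library, where 3 counts would be 15.8 and 4.40 CPM.

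Il1b stood at 2583 CPM (2539 to 2628) in cluster 3 in chow and at 3134 (3019 to 3252) in KD, the highest level of any cluster in each library. Cluster 5 followed with 2430 (2366 to 2496) and 2240 (2185 to 2297), and then, in chow, cluster 8 with 1238 (1198 to 1279), whose KD level was 762 (658 to 878). In cluster 6 Il1b stood at 790 and 766, in cluster 12 at 775 and 471, and in the cycling cluster 10 at 1177 and 623. The lymphoid clusters lay far below, at 149 to 414 CPM in chow and 44.0 to 152 in KD. The ranges of the myeloid and lymphoid clusters did not overlap in either library, and the highest cluster exceeded the lowest 17.4-fold in chow and 71.3-fold in KD.

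Single cells spread widely around these sums. In cluster 3, 90.7% of chow cells (88.5 to 92.6) and 86.9% of KD cells (80.3 to 91.9) had an Il1b UMI, with medians of 9 and 13 UMIs and maxima of 149 and 137 in 1 cell. The NK-like cluster 1, a lymphocyte type that should lack the gene, had 29.97% and 14.4%. Median depths were 5543 and 5589 UMIs in cluster 3 against 2296.5 and 3147 in cluster 1, and at a common depth of 1000 UMIs per cell the shares became 68.6% and 71.4% in cluster 3 against 13.5% and 4.60% in cluster 1. Nlrp3 was seen in 43.1% and 42.8% of cluster 3 cells against 2.76% and 1.22% of cluster 1 cells, or 12.1% and 10.8% against 1.04% and 0.30% at the common depth. Both genes were therefore well above the NK-like background in cluster 3 in both libraries. Cluster 3 cells with an Nlrp3 UMI had 3122 CPM of Il1b in chow and 3496 in KD, and those without one had 2119 and 2825. The cells with an Nlrp3 UMI were also deeper, with medians of 5922 and 6294.5 UMIs against 5307 and 5208, and the part of depth in the difference was not tested.

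Il18, the second cytokine substrate, was highest in the cDC1-like cluster 6 in chow at 44.7 CPM (36.7 to 53.9) and in cluster 3 in KD at 44.8 (32.0 to 61.0). Its chow level in cluster 3 was 25.99 (21.7 to 30.8) and its KD level in cluster 6 was 32.7 (27.0 to 39.3). In ILC2-like, NK-like and T-like cells it rested on at most 7 UMIs a library, with 0 UMIs in the T-like and the γδ T-like cells of the chow library, where 3 counts would be 4.83 and 15.8 CPM. Il18 was thus, like Nlrp3 and Il1b, a myeloid-weighted gene, with the cDC1-like cells among its leading sources.

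Casp1, the protease, was highest in cluster 3 in both libraries, at 49.8 CPM (43.9 to 56.3) in chow and 97.4 (78.0 to 120) in KD. In chow this interval overlapped that of cluster 5, at 39.4 (31.6 to 48.7). Casp1 in the lymphoid clusters was at 10.5 to 29.0 in chow and 11.3 to 43.4 in KD, the last in T-like cells. The chow value of 10.5, in γδ T-like cells, rested on 2 UMIs. Pycard, the adaptor, was detected throughout, from 89.2 CPM in the B and plasma-like cluster to 410 in cluster 8 in chow, and from 74.1 in ILC2-like cells to 291 in cycling cells in KD. NK-like cells had 281 (257 to 306) and 288 (271 to 307) CPM of Pycard, and ILC2-like cells had 93.8 (81.9 to 107) and 74.1 (66.2 to 82.6), so the lymphoid clusters did not share 1 level. Gsdmd, the pore former, stood highest in the mature DC-like cluster 12 in both libraries, at 53.9 (33.4 to 82.4) and 69.4 (44.4 to 103), but no neighbours in its order of clusters were apart beyond their intervals.

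Nek7 and Txnip had lymphoid-weighted profiles. Nek7, the kinase that binds NLRP3, was highest in T-like and ILC2-like cells, at 93.3 (70.9 to 121) and 89.97 (78.3 to 103) CPM in chow and 89.0 (78.2 to 101) and 96.3 (87.3 to 106) in KD. In the macrophage-like cluster it stood at 35.8 (30.8 to 41.4) and 38.1 (26.4 to 53.2), below both of those in each library. Txnip was highest in γδ T-like cells in chow, at 163 (111 to 232) from 31 UMIs, and in T-like cells in KD, at 127 (114 to 141). It was lowest in mature DC-like cells, at 5.13 and 8.67 CPM from 2 and 3 UMIs, and stood at 35.8 and 45.9 in cluster 3 and at 19.7 and 23.8 in cluster 6. Each lymphoid cluster lay above every myeloid cluster for Txnip in both libraries by point value, with intervals that overlap between the lowest lymphoid and the highest myeloid cluster.

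**Figure D1:**
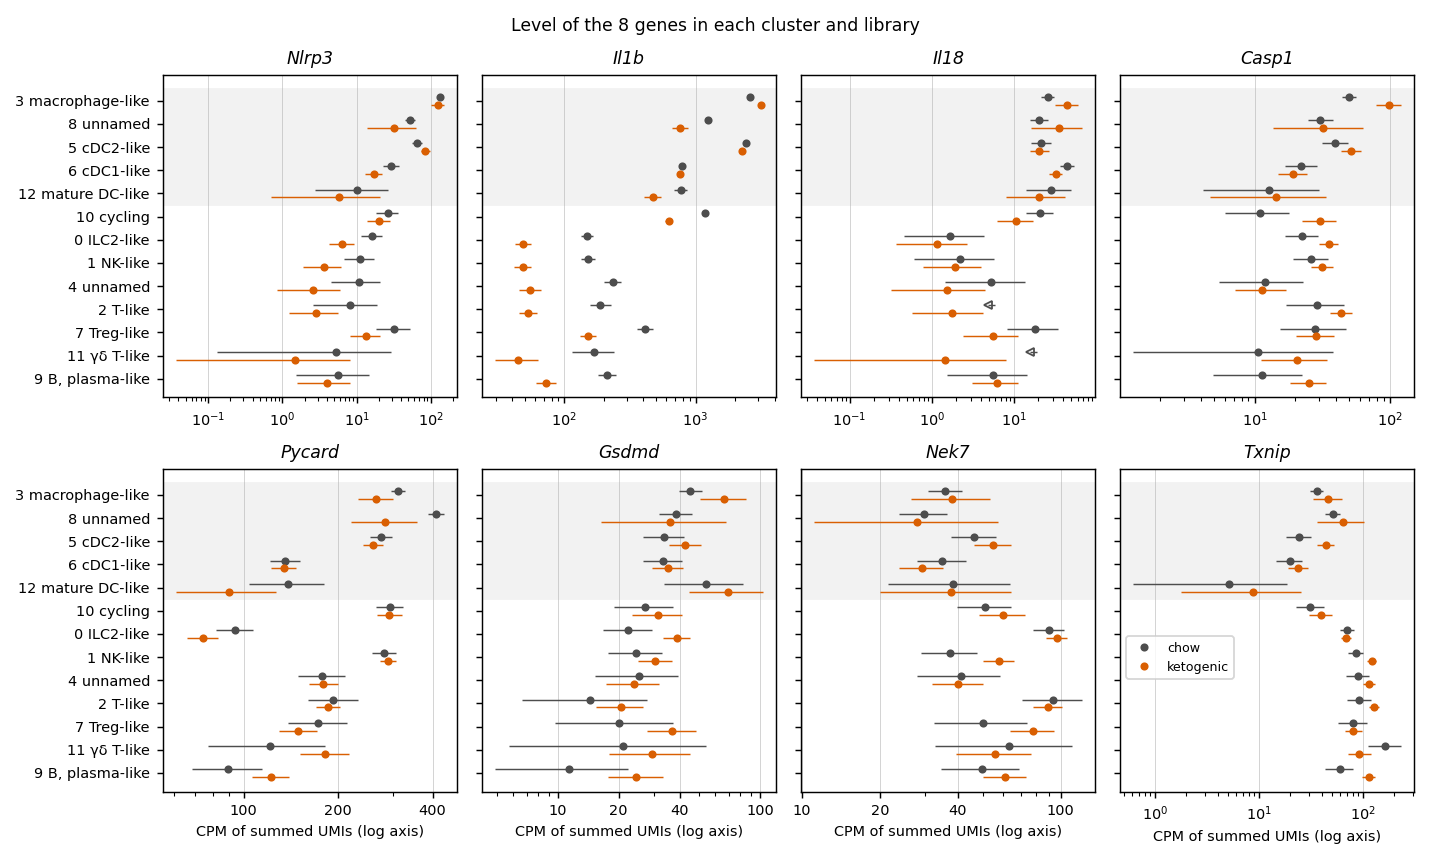
Level of each of the 8 genes in CPM of summed UMIs (log axis) by cluster, grey for the chow and orange for the KD library, with exact Poisson 95% intervals, and an open triangle at the level of 3 counts where no UMI was seen. Myeloid clusters are on the shaded rows. Nlrp3 and Il1b peak in cluster 3, while Txnip is lowest in cluster 12.

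Among the 8 members, Nlrp3 and Il1b, the 2 induced in the priming step, differed most between the libraries over all clustered cells. Nlrp3 stood at 55.2 CPM (52.1 to 58.4, 1178 UMIs) in chow and 20.3 (18.6 to 22.2, 526 UMIs) in KD, 2.71-fold lower (2.45 to 3.01). Il1b stood at 1276 (1261 to 1291) and 542 (533 to 551), 2.35-fold lower (2.31 to 2.40). These 2 were the members past 2-fold, both lower, against 13.5% of the 12678 genes with at least 20 UMIs in the same comparison. The median log2 ratio (KD over chow) was -0.19 for the 8 members and 0.14 for all those genes.

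Il18 was 1.77-fold lower (1.51 to 2.06), at 19.4 CPM in chow and 10.98 in KD. Pycard was 1.35-fold lower (1.30 to 1.41), at 249 and 184. Txnip was 1.61-fold higher (1.49 to 1.73), at 48.4 and 77.7, and Nek7 1.35-fold higher (1.25 to 1.47), at 46.0 and 62.2. Nlrp3, Il1b and Il18 were thus lower in the KD library, and Nek7 and Txnip, with lymphoid-weighted profiles, were higher. Direction did not follow profile for every member. The myeloid clusters held 74.6% of Casp1 UMIs in chow and 35.8% in KD, and 73.8% and 37.8% of Gsdmd UMIs. They held 61.0% and 29.9% of all UMIs, yet neither gene was lower in KD as counted. Casp1, at 30.6 and 33.5 CPM, and Gsdmd, at 32.9 and 33.9, had log2 ratios of 0.13 and 0.05, and relative to the median log2 ratio of well-covered genes, 0.13, both came to lie at or just below 0 (-0.00 and -0.08).

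The clusters that supplied the transcripts changed with the cell shares. In chow, cluster 3 alone gave 57.6% of the Nlrp3 UMIs (54.7 to 60.4) and 48.2% of the Il1b UMIs (47.6 to 48.8). In KD it gave 20.9% (17.5 to 24.6) and 19.97% (19.3 to 20.6), and the cDC2-like cluster 5 gave 44.3% (39.999 to 48.7) and 44.2% (43.3 to 45.0), up from 12.2% and 19.7% in chow. The cDC1-like cluster 6 supplied 7.07% of Il1b UMIs in chow and 19.0% in KD, and its part of the Il18 UMIs was 26.3% and 40.1%. Dendritic cells were thus the main measured source of Nlrp3, Il1b and Il18 mRNA in the KD library, and clusters 3 and 8 together the main source of Nlrp3 and Il1b in the chow library, with 70.5% and 61.4%.

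For Casp1, Pycard, Gsdmd and Nek7 the larger source was the myeloid clusters in chow and the lymphoid clusters in KD, while for Txnip it was the lymphoid clusters in both. The lymphoid clusters supplied 23.1% of Casp1 UMIs in chow and 58.7% in KD, 21.7% and 58.3% of Pycard UMIs, and 20.9% and 56.5% of Gsdmd UMIs. They supplied 45.0% and 75.1% of Nek7 UMIs and 53.8% and 83.7% of Txnip UMIs, beside 32.5% and 63.9% of all UMIs. Only Nek7 and Txnip therefore had a lymphoid share above that of all UMIs in both libraries.

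**Figure D2:**
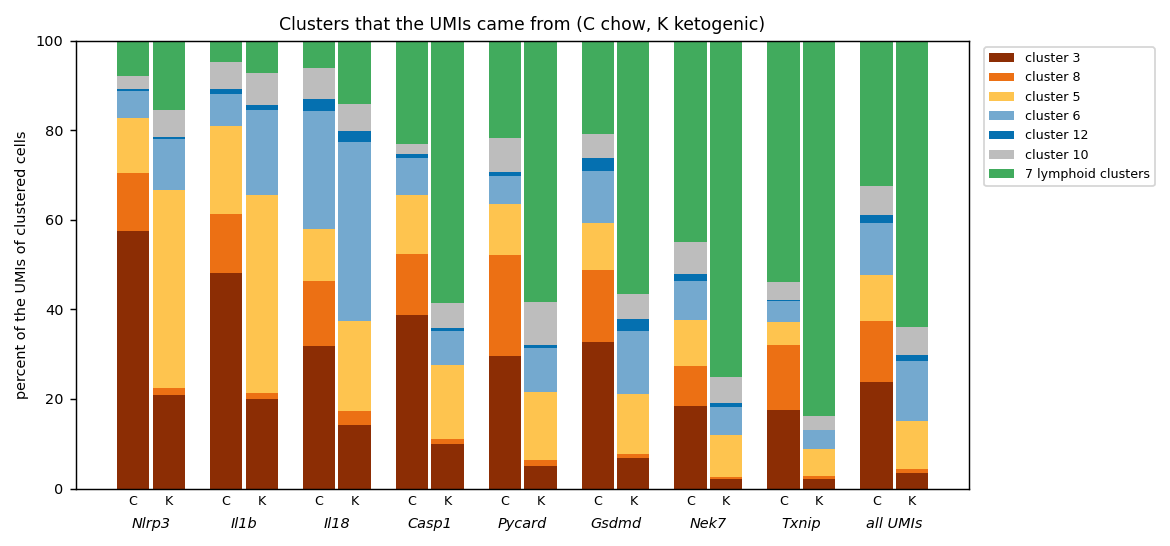
Percent of each gene's UMIs in clustered cells that came from each myeloid cluster, the cycling cluster and the 7 lymphoid clusters together, for the chow (C) and KD (K) libraries, with all UMIs at the right. Cluster 3 falls from 57.6% to 20.9% of Nlrp3 UMIs, and the lymphoid clusters exceed their 63.9% of all KD UMIs for Nek7 and Txnip.

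To separate cluster shares from levels within clusters, levels were also averaged over clusters with fixed weights, the mean of a cluster's UMI shares in chow and KD. With these weights Nlrp3 stood at 40.6 and 33.9 CPM, a log2 ratio of -0.26 (-0.45 to -0.08) in place of -1.44. Il1b stood at 976 and 889, a log2 ratio of -0.13 (-0.17 to -0.10) in place of -1.24. Of the Nlrp3 difference of -34.8 CPM (KD minus chow), -28.1 came from cluster shares and -6.71 from levels within clusters, so cluster shares made up 80.7%. For Il1b they made up 88.2% of a difference of -734 CPM. None of the 8 genes was past 2-fold with equal weights, beside 4.79% of genes, and the median log2 ratio was 0.10 for the members and 0.07 for all genes.

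Of the remaining members, 4 also moved toward 0 under equal weights. Il18 had a log2 ratio of 0.06 (-0.22 to 0.33), although, of clusters with at least 20 UMIs, it was lower in KD beyond counting error in the cDC1-like and the cycling clusters and higher in the macrophage-like one. Pycard had -0.13 (-0.20 to -0.06), Nek7 0.14 (0.01 to 0.27) and Txnip 0.34 (0.21 to 0.46). Casp1 and Gsdmd moved away from 0 instead, to 0.56 (0.38 to 0.74) and 0.39 (0.22 to 0.56). Casp1 was thus the member with the largest weighted ratio, at 27.3 CPM in chow and 40.3 in KD. Fewer cells of a type in a library can follow from the tissue or from cell recovery, which cannot be told apart here.

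**Figure D3:**
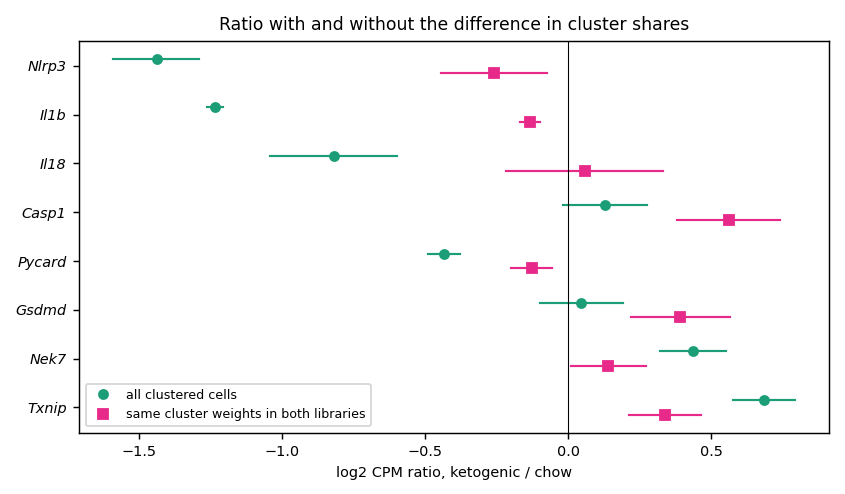
Log2 ratio of CPM, KD over chow, of each gene over all clustered cells (green circles) and with the same cluster weights in both libraries (pink squares), with 95% counting intervals. Nlrp3 moves from -1.44 to -0.26 and Il1b from -1.24 to -0.13, while Casp1 moves from 0.13 to 0.56.

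Within the macrophage-like cluster 3, no member was past 2-fold, beside 10.8% of 8884 genes, and 6 of the 8 had a level above chow in KD, all but Nlrp3 and Pycard. Casp1 was nearest, at 1.96-fold higher (1.51 to 2.50), from 253 UMIs in chow and 87 in KD. Il18 was 1.72-fold higher (1.18 to 2.47), Gsdmd, at 45.3 and 66.1 CPM, 1.46-fold (1.08 to 1.95), and Il1b 1.21-fold (1.16 to 1.26). Pycard was 1.17-fold lower (1.02 to 1.35), at 310 and 264 CPM. The intervals of Nlrp3, Nek7 and Txnip included no difference. Casp1, Il18, Gsdmd and Il1b were hence the members above their chow level in this cluster beyond counting error. The share of all genes with such an interval was not computed, so this does not set them apart. The interval of Il1b is narrow because it rests on 13120 and 2799 UMIs. The median log2 ratio of the 8 was 0.32 beside 0.06 for all genes.

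Neutrophil markers moved with cluster 3 as well. Their summed level was 314 CPM (1596 UMIs) in chow and 69.4 CPM (62 UMIs) in KD, 3 of the 11 were raised in the cluster, and the granule genes Ngp, Camp and Ltf were at 0 UMIs in both libraries. Neutrophils are known for high Il1b mRNA. Without the cells of any cluster that held at least 3 neutrophil marker UMIs, 49 in chow and 40 in KD, the log2 ratio in cluster 3 was 0.25 for Il1b in place of 0.28 and -0.08 for Nlrp3 in place of -0.11. That of Casp1 was 1.04 in place of 0.97, so that Casp1 alone of the 8 passed 2-fold. Other marker lists moved in cluster 3 too. The 12 macrophage markers together stood at 5669 CPM in chow and 7016 in KD, with Folr2 and Lyve1 at 0 UMIs in KD, and the 8 monocyte markers at 5472 and 7180. No marker of the NK, CD4 T, CD8 T and ILC2 lists was raised in the cluster over the other cells. In its KD cells the NK list was higher in sum, at 86.8 and 228 CPM, as were CD4 T at 104 and 200 and CD8 T at 389 and 771, while the ILC2 list was lower, at 403 and 133. The adipocyte, stromal and endothelial list, with 1 of 9 raised, stood at 56.3 and 143. The part of these cell types in the Casp1, Il18, Gsdmd and Il1b differences was not tested.

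Complement C1q marks resident-type macrophages, so cluster 3 was split by its C1qa, C1qb and C1qc UMIs. At least 3 such UMIs were found in 299 chow and 32 KD cells, or 34.8% and 22.1% of the cluster, and 48 and 8 cells lay at 2 to 4 UMIs, near the limit. In cells under 3 UMIs, Casp1 stood at 48.6 CPM (41.2 to 56.9) in chow and 108 (83.9 to 136) in KD, a log2 ratio of 1.15, and in the C1q cells at 51.8 (42.1 to 63.1) and 70.0 (40.8 to 112), a log2 ratio of 0.47. Il1b stood at 2736 and 3353 in the cells under 3 UMIs and at 2331 and 2549 in the C1q cells. Il1b was thus lower in C1q cells than in the rest of the cluster in both libraries. For Casp1 the intervals of the 2 ratios overlap (1.65 to 2.96-fold and 0.76 to 2.27-fold), and the difference between them was not tested.

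Cluster 8 had no member past 2-fold, beside 15.1% of genes. Il1b was 1.62-fold lower (1.40 to 1.89) in its KD cells and Pycard 1.45-fold lower (1.14 to 1.87), at 410 and 282 CPM. Its 47 KD cells gave 7 to 9 UMIs each for Nlrp3, Casp1, Gsdmd, Nek7 and Il18, and all 5 of these ratios had intervals that included no difference. Median depth in this cluster was 7938.5 UMIs in chow and 4581 in KD. Its summed monocyte markers, 2 of 8 raised, stood at 2650 CPM in chow and 1969 in KD and its cDC2 markers, 4 of 7 raised, at 1431 and 1175. The NK list stood at 103 and 39.7, the plasma list at 363 and 214, the ILC2 list at 359 and 202 and the CD4 T list at 102 and 250.1, and their part in these ratios was not tested.

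In the dendritic clusters, which kept similar cell numbers (344 and 358 in cluster 5, 307 and 355 in cluster 6), no member was past 2-fold. The share of all genes past 2-fold was 6.53% in cluster 5, 5.68% in cluster 6 and 9.89% in cluster 12, the mature DC-like cells. In cluster 5, Nlrp3 was 1.29-fold higher (1.04 to 1.60), Txnip 1.82-fold higher (1.31 to 2.57), at 24.0 and 43.8 CPM, and Il1b 1.08-fold lower (1.05 to 1.13). In cluster 6, Nlrp3 was 1.69-fold lower (1.18 to 2.42) and Il18 1.37-fold lower (1.04 to 1.79), while Il1b was level within its interval (0.91 to 1.03 for KD over chow). Nlrp3 therefore had ratios on opposite sides of 1 in the cDC2-like and cDC1-like cells, a difference that was not tested. In mature DC-like cells Il1b was 1.65-fold lower (1.36 to 2.003).

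Markers of other cell types moved in the dendritic clusters too. In cluster 5 the summed CD4 T markers stood at 86.1 CPM in chow and 334 in KD, the CD8 T markers at 453 and 780 and the Treg markers at 59.9 and 119, with none of them raised in the cluster over the other cells. In cluster 6 the CD4 T list stood at 52.1 and 172 and the CD8 T list at 286 and 496, again with none raised. In cluster 12 the cDC2 markers stood at 411 and 78.0 CPM, the macrophage markers at 205 and 72.3 and the monocyte markers at 298 and 188, while the NK list was higher in KD, at 79.6 and 246. The CD4 T list was higher too, at 79.6 and 182, as was γδ T at 2.57 and 80.9. The CD8 T list, with 1 of 7 raised, stood at 5831 and 11080, from 2271 and 3833 UMIs. It shares Cd3e, Cd3d, Trac and Trbc2 with the CD4 T list, which held only 31 and 63 UMIs. These shared genes thus made up little of the CD8 T sum in either library. Chow cells had no Cd8b1 UMI, so most of their CD8 T list UMIs were of Cd8a or Ccl5. The part of these cell types in the member differences of clusters 5, 6 and 12 was not tested.

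The lymphoid clusters held little Nlrp3 and Il1b, and as counted both stood lower in KD in each of them. For Nlrp3 the intervals of clusters 2, 9 and 11 included no difference. In cluster 9 Nlrp3 stood at 0.16 CPM in chow and 2.17 in KD after the subtraction of free RNA given below. These values rest on 0.10 and 3.43 UMIs left, too few for a ratio, and show no direction. Il1b was past 2-fold in all 7 as counted, from 2.72-fold lower (2.24 to 3.31) in Treg-like cells to 4.28-fold lower (3.34 to 5.49) in cluster 4, where it stood at 234 and 54.6 CPM. With 10% of each cluster's UMIs subtracted as free RNA in proportion to the library profile, the Il1b ratio could be computed in only 2 of the 7, the Treg-like and the B and plasma-like clusters, which were still past 2-fold, and in the other 5 at most 3 KD counts were left and the call was lost. In NK-like cells Il1b stood at 152 (135 to 171) and 48.1 (41.2 to 55.9), and Nlrp3 at 11.1 and 3.62. Nlrp3 was past 2-fold in the 3 of these clusters where it had 20 UMIs, clusters 0, 1 and 7, and in the same 3 after that subtraction. The Nlrp3 call in cluster 7 was lost without the lymphoid-cluster cells that had a UMI of Adgre1, Csf1r, Cd209a or Clec10a. Nlrp3 then stood there at 12.8 and 10.2 CPM, from 5 and 12 UMIs, in place of 32.1 and 13.4. In cluster 0 it then stood at 16.8 and 6.55 CPM and in cluster 1 at 11.4 and 3.25. The share of all genes past 2-fold was 5.94% in cluster 0, 5.43% in cluster 1, 9.83% in cluster 2, 7.52% in cluster 4, 9.11% in cluster 7, 23.4% in cluster 9 and 11.1% in cluster 11.

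As a share of the library level, lymphoid Il1b was lower in KD in each of the 7 clusters. The share of Nlrp3 was lower in KD in clusters 1, 2, 4 and 11 only. It stood at 29.0% in chow and 31.6% in KD in cluster 0, at 58.2% and 66.1% in cluster 7 and at 10.3% and 19.6% in cluster 9. In all lymphoid clusters but the Treg-like one, Il1b stood at 11.7% to 18.3% of its library level in chow and at 8.11% to 13.4% in KD, and in the Treg-like cluster at 32.4% and 28.0%. The summed macrophage markers were also lower in KD in each of these clusters as CPM, but as a share of their library level they were lower only in cluster 4. Over the library they stood at 1673 CPM in chow and 398 in KD, and in lymphoid clusters other than the B and plasma-like one at 9.20% to 12.5% and 8.28% to 17.9% of that. In the B and plasma-like cluster they stood at 23.3% and 87.0%. Without the lymphoid-cluster cells that had a UMI of Adgre1, Csf1r, Cd209a or Clec10a (268 in chow and 256 in KD), Il1b in the Treg-like cluster stood at 148 and 47.4 CPM in place of 414 and 152. The part of free RNA or of myeloid cells in the lymphoid Il1b and Nlrp3 was not tested.

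Members other than Nlrp3 and Il1b mostly stayed within 2-fold in the lymphoid clusters. Txnip was 1.42-fold higher (1.18 to 1.72) in NK-like, 1.39-fold higher (1.05 to 1.87) in T-like and 1.77-fold lower (1.11 to 2.76) in γδ T-like cells. Nek7 was 1.55-fold higher (1.17 to 2.07) in NK-like cells, at 37.3 and 57.6 CPM. In ILC2-like cells Casp1 was 1.59-fold higher (1.15 to 2.21), Gsdmd 1.74-fold higher (1.27 to 2.42) and Pycard 1.27-fold lower (1.06 to 1.51). Casp1 and Gsdmd were past 2-fold, both higher, in the B and plasma-like cluster 9, where 8 chow UMIs each set their ratios and the median log2 ratio of all well-covered genes was itself 0.50, and relative to that median both were within 2-fold. Casp1 was also past 2-fold in the cycling cluster 10, on 15 and 48 UMIs, at 10.9 and 30.1 CPM and 2.77-fold higher (1.52 to 5.32), beside 12% of genes.

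Other marker lists moved in these clusters as well. In the ILC2-like cluster the mast or basophil markers stood at 11.4 CPM in chow and 81.7 in KD and the erythroid markers at 121 and 602, while the neutrophil markers stood at 120 and 10.3 and the macrophage markers at 154 and 44.96. In cluster 9 the plasma cell markers, all 7 raised, stood at 61854 and 29765, and the CD4 T list at 55.2 and 369. The cycling cluster had a different mix of lineage markers in the libraries: the CD8 T list stood at 775 and 2853 CPM, CD4 T at 366 and 1354, B at 413 and 1096 and NK at 223 and 565, whereas the macrophage list stood at 439 and 211 and the cDC2 list at 672 and 346. The part of these shifts in the Casp1, Gsdmd, Il18 and Il1b values of these clusters was not tested.

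**Figure D4:**
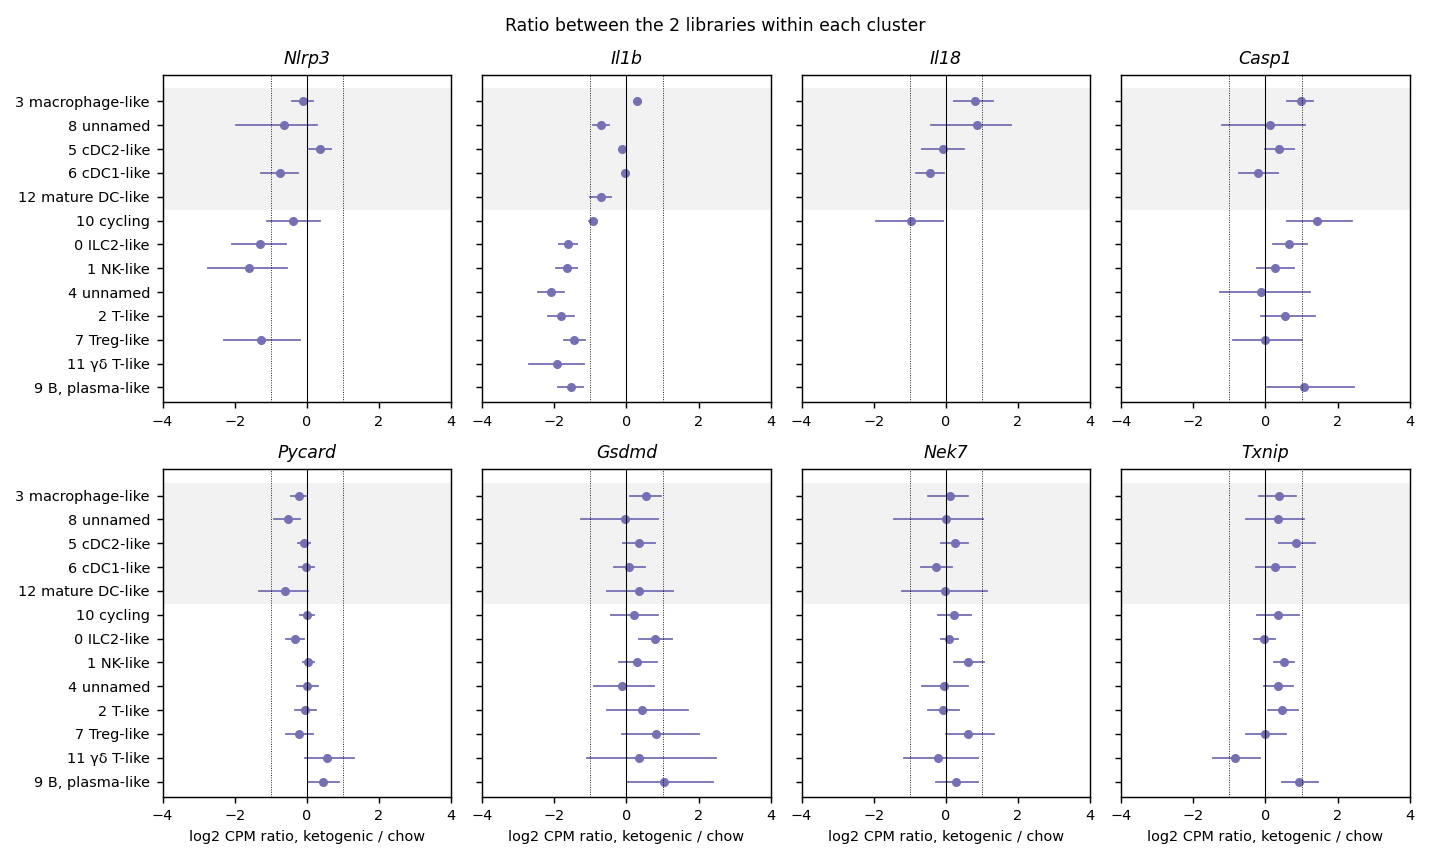
Log2 ratio of CPM, KD over chow, within each cluster that had at least 20 UMIs of the gene, with 95% counting intervals and dotted lines at 2-fold, myeloid clusters on shaded rows. Il1b lies below the lower dotted line in all 7 lymphoid clusters and within the lines in all 5 myeloid ones.

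Around the 8 genes, 51 of 52 listed pathway genes were found by symbol (Gsdme was not), and in cluster 3, 43 of these had at least 20 UMIs. Of the 43, 4 were past 2-fold higher and 6 lower, beside the 10.8% of all genes, and their median log2 ratio was 0.14. Among genes of the execution step, Ninj1, which ruptures the membrane in lytic death, stood at 147 CPM in chow and 358 in KD, 2.14 to 2.79-fold higher. Gbp2, an interferon-induced GTPase that aids the non-canonical pathway, stood at 21.9 and 88.5, or 2.99 to 5.45-fold higher. Il1a, the sister cytokine of Il1b, stood at 20.9 and 52.6, and Il18bp, the decoy that binds interleukin-18, at 2.36 and 12.3, from 12 and 11 UMIs. These 4 were the higher ones.

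Among the 13 priming genes 1 was past 2-fold, Tnf, at 98.6 and 41.4 CPM. Tlr2 stood at 143 and 256 CPM and Myd88 at 38.2 and 67.2, while the NF-κB inhibitors Nfkbia (1654 and 1307) and Tnfaip3 (270 and 159) were on the lower side, all 4 within 2-fold. Tnf, the NF-κB targets Nfkbia and Tnfaip3, and Il1b, which is one as well, therefore did not share 1 direction in this cluster. The receptor chain Il1rap stood at 19.1 and 4.48 CPM, from 97 and 4 UMIs, and Il1rl1, the IL-33 receptor, at 26.4 and 10.1. Il1rl1 was highest in ILC2-like cells, at 790 and 513 CPM, and the summed ILC2 markers in cluster 3 stood at 403 and 133 CPM. Their part in the Il1rl1 difference was not tested.

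Of the 5 ion flux genes, Kcnk6, a potassium channel, had 55 UMIs in chow and 0 in KD. It was 3.22-fold lower when 3 counts are set for the KD cells, and the interval of its KD over chow ratio reached up to 0.39. Trpm2, a calcium channel, had 32 and 0 UMIs, 1.88-fold lower with 3 counts set, which stops short of 2-fold. The interval of its ratio reached up to 0.69. The purine receptor P2rx7 stood at 16.7 and 8.96 CPM, from 85 and 8 UMIs, and its relative P2rx4 at 91.2 and 109. The sixth gene past 2-fold lower, the sensor Nlrc4, rested on 33 and 2 UMIs with an interval that included no difference (0.04 to 1.35), and the 5 other sensors with enough UMIs were within 2-fold. None of the 6 regulators was past 2-fold, and neither was Hcar2, the receptor of β-hydroxybutyrate, at 15.2 and 15.7 CPM. In cluster 8, 1 of 36 pathway genes was past 2-fold higher and 3 lower, beside 15.1% of genes. With equal cluster weights it was 1 of 47 in each direction, Il18bp higher and Trpm2 lower (log2 ratio -1.52), beside 4.79%. Over all clustered cells without these weights it was 0 of the 47 higher and 10 lower, beside 13.5% of genes.

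**Figure D5:**
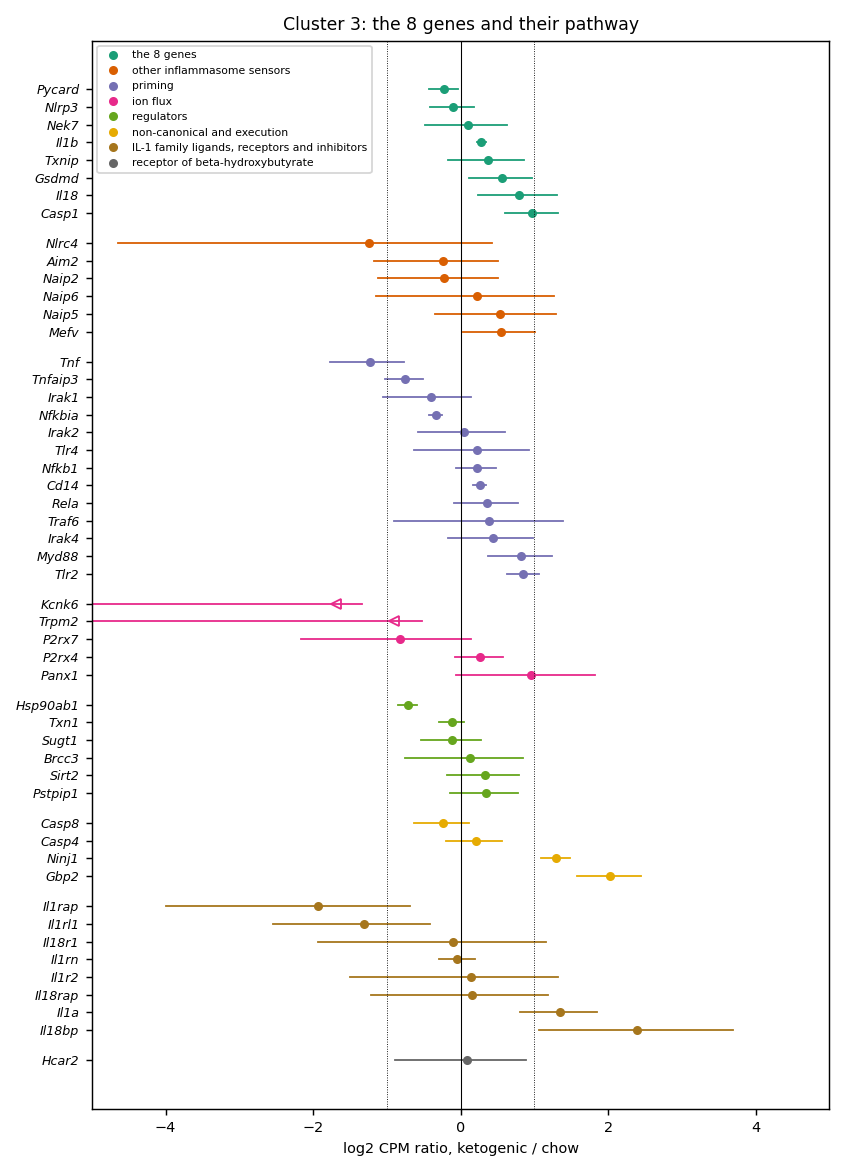
Log2 ratio of CPM, KD over chow, in cluster 3 for the 8 genes (top) and the pathway genes with at least 20 UMIs, by group, with 95% counting intervals that are clipped at the axis limits and dotted lines at 2-fold. Open triangles mark Kcnk6 and Trpm2, with 0 UMIs in KD, at the ratio that 3 counts would give. All 8 genes lie within the dotted lines, and Gbp2 and Ninj1 lie to the right of them.

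The likeness of profiles over the 26 sums of cluster and library was described by Pearson's r of log2(CPM + 10) among 9119 genes with at least 200 UMIs. These points share 2 libraries and their depth, so r is a description only. Nlrp3 was most like Cd300a (0.96), an inhibitory receptor of myeloid cells, then Ifitm3 and AF251705 (both 0.94). Il1b was most like Ifitm2 (0.98), Cd68 (0.96), a lysosomal protein of macrophages, and Ifitm3 (0.95). Il18 was most like Csf2rb (0.95), Irf5 and Csf2ra (both 0.93), and Csf2ra and Csf2rb are the chains of the GM-CSF receptor.

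For Txnip the nearest genes were Dgkd (0.90), Shisa5 (0.88) and Impdh1 (0.87). Gsdmd was nearest to Amdhd2 (0.87), Mvp (0.86) and Ube2f (0.85), and Nek7 to Faah, Ly6a (both 0.82) and Grhpr (0.81). Pycard was nearest to Map7d1 (0.82), Iqgap1 and Sh2d1b1 (both 0.81), and Casp1 to Gcsh (0.78), Vmp1 (0.77) and Mrto4 (0.76). Among the members themselves, Il1b was close to Nlrp3 (0.89) and Il18 (0.86) and ran against Txnip (-0.67), while Casp1 was closer to Nlrp3 (0.64) than to Il1b (0.35). The 8 genes thus did not form 1 profile: Nlrp3, Il1b and Il18 went together, Nek7 and Txnip were on the other side, and Pycard had 0.55 with Nlrp3 and 0.03 with Txnip.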

How the data were processed

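Cells were counted with Cell Ranger against mm10 and handled in Seurat, per the submitters' processing notes, which give no versions. The authors' deposited matrices give, for each cell, unnormalised UMI counts of every gene, and the deposited table gives clusters at resolution 0.5. All 142 cells outside the table had over 5.00% mitochondrial UMIs. UMIs were summed per cluster and library. Python 3.11.15, numpy 2.4.6 and scipy 1.17.1 gave exact Poisson intervals for CPM, Clopper-Pearson intervals for shares and exact conditional intervals for ratios, while ratios with equal cluster weights have normal approximation intervals of their summed Poisson variances. A log2 ratio adds 0.5 counts, and a fold call needs 2-fold and at least 20 UMIs over both libraries. No test between diets was possible and no doublets were called. Clusters were named by hand from listed markers, with at least 3 raised 2-fold (CPM + 20) and at least 1 among the 10 leading genes. Cluster 4 met this for T cells but was left unnamed, since NK receptor genes led it. The scripts were tested on simulated data. Total counts were 21570910 (chow) and 26041785 UMIs (KD).

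The members, marker lists and pathway list were chosen with earlier results of these data known, and the motifs after values were seen. Genes named are the 8 members, pathway genes past 2-fold in cluster 3 or with equal weights with at least 100 UMIs, and the 3 genes most like each member. Other pathway genes named, such as Il18bp, Nlrc4 and Kcnk6, were chosen after their values were seen. Alternatives covered scaling, cell filters, thinning, free RNA and Leiden clusters (leidenalg 0.10.2) made without these genes.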

Additional observations from a re-analysis of the deposited data

Results flagged for a closer look

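For 5 members, intervals in a pair of clusters lay on opposite sides of no difference between the libraries, and in each case the difference between clusters was not tested. The share of all genes that meet this rule was not computed, so the count does not set these members apart. Nlrp3 had a log2 ratio (KD over chow) of -1.60 in NK-like cells and 0.37 in cDC2-like cells. Il1b had -2.09 in cluster 4 and 0.28 in the macrophage-like cluster. Il18 had -0.96 in cycling cells, whose summed macrophage markers stood at 439 and 211 CPM and CD8 T markers at 775 and 2853 in chow and KD, and 0.80 in the macrophage-like cluster. The part of that marker shift was not tested. Pycard had -0.53 in cluster 8 and 0.44 in B and plasma-like cells, where the median of all well-covered genes was 0.50. Txnip had -0.83 in γδ T-like and 0.92 in B and plasma-like cells.

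The 87 chow and 55 KD cells that the deposited table leaves without a cluster also held member UMIs above the limit of 3 counts. In the chow cells the levels were 89.98 CPM for Nlrp3, 967 for Il1b, 18.0 for Casp1, 135 for Pycard, 58.5 for Nek7 and 72.0 for Txnip. In the KD cells they were 62.6 for Il1b, 211 for Pycard, 22.8 for Gsdmd, 91.1 for Nek7 and 114 for Txnip. Nlrp3 rested on 1 UMI in the KD cells, and Il18 had none.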

How the results depend on the processing

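Of 55 log2 ratios of members recomputed under the alternatives, 12 had another sign in at least 1 of them, and in all 12 the reported interval included 0. Over all clustered cells, the mean of each cell's own CPM gave log2 ratios of -1.73 for Nlrp3, -1.52 for Il1b and -0.35 for Pycard, and thinning to 1000 UMIs gave -1.73, -1.52 and -0.35. Centring on the median gene gave -1.37 for Il1b, -0.57 for Pycard, 0.31 for Nek7 and 0.55 for Txnip. Leaving mitochondrial and ribosomal protein genes out of the total gave -1.18 for Il1b and -0.38 for Pycard. Il1b was at -1.30 in cells above the lowest depth of the KD library and -1.27 without cells with neutrophil UMIs, and in cells with at least 3000 UMIs Pycard was at -0.50 and Txnip at 0.84. With equal cluster weights Il1b was at -0.21 when centred, -0.020 with 10% of UMIs subtracted as free RNA, -0.090 in Leiden clusters and -0.17 with cell shares as weights (an alternative added after seeing the data), and Pycard was at -0.21 when centred.

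Of the counts of members past 2-fold, that in cluster 3 went from 0 to 1, Casp1, without neutrophil-UMI cells, with free RNA subtracted and in Leiden clusters. In cluster 8 it went from 0 to 2 with the mean over cells, and to 1 with cells of at least 3000 UMIs, without the richest cell of each library, and with thinning. In cluster 9 it went from 3 to 1 when centred and in Leiden clusters, and in cluster 10 from 1 to 3 with the mean over cells and with thinning, and to 2 when centred and without the richest cells. A minimum of 100 UMIs left 1 in clusters 0, 1, 7 and 9, and 0 in clusters 10 and 11, so that the calls of Casp1 in clusters 9 and 10 and of Gsdmd in cluster 9 were lost. The calls of Nlrp3 in clusters 0, 1 and 7 and of Il1b in cluster 11 were lost as well. A minimum of 50 left 1 in clusters 1 and 7, and a minimum of 10 gave 2 in clusters 2 and 4 and 3 in cluster 7. Without cells over 3 times their cluster's median UMIs cluster 7 had 1, and with at least 3000 UMIs cluster 11 had 2. With free RNA subtracted, ratios with at most 3 counts left in a library were not computed, so that the Il1b call was lost in 5 lymphoid clusters and the count was 1 in clusters 0 and 1 and 0 in clusters 2, 4 and 11. No paired analysis was possible because each diet has 1 library. Depth was lowest in the chow cells of cluster 11, with 189870 UMIs, and the KD cells of cluster 8, with 251922.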
